A study of Mus musculus with 32 samples.

Results

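The endoplasmic reticulum stress chaperones and their partners are described here through 10 genes of the unfolded protein response, Hspa5, Hsp90b1, Xbp1, Herpud1, Sdf2l1, Creld2, Dnajb9, Pdia4, Derl3 and Selenos, which were chosen by name from the 20076 genes of the count table. Reads were counted per gene in RNA labelled as liver from 32 male C57BL/6J mice, 4 in each of 8 groups. WT mice, or KO mice that lack Acadm, the gene of medium-chain acyl-CoA dehydrogenase (MCAD), received a low-fat (LF) or a high-fat (HF) diet for 6 weeks and were then left on the diet (fed) or fasted for 16 h. The knockout was carried by the whole animal, and the labels give ages from 7.5 to 16.0 without a unit. Levels are CPM (read counts relative to the library size) scaled by the TMM method of edgeR.

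Replicate 4 of the KO HF fasted mice and replicate 2 of the WT LF fed mice were left out of all values unless stated, which left 30 mice, 15 in each genotype, diet and feeding state. The first of these went against its tissue label. Its heart markers summed to 42837 CPM and its hepatocyte markers to 917 CPM, against 0.366 to 235 CPM and 48282 to 81098 CPM in the 30 mice used. In WT LF fed replicate 2 hepatocyte markers summed to 42146 CPM. Its bile duct markers summed to 330 CPM, against 48.9 to 96.8 CPM in the 30 mice used. Between 2031053 and 4292200 reads were counted per mouse. Acadm was counted 26 to 94 times per KO mouse and 566 to 2752 times per WT mouse, with no overlap, and fell by 4.44 on the log2 scale in KO (SE 0.12, adjusted p = 6.6e-27, edgeR quasi-likelihood test). Among the 30 mice, acinar pancreas markers summed to 19373 CPM in WT HF fasted replicate 2 and 2837 CPM in KO HF fed replicate 1, and to 2.16 to 64.4 CPM in the other 28 mice. The replicates are separate mice by their labels, and fewer cells of a type and less RNA per cell cannot be told apart in such bulk liver samples.

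Secreted and membrane proteins fold in the endoplasmic reticulum. When unfolded proteins accumulate there, the sensors IRE1 (Ern1), PERK (Eif2ak3) and ATF6 start the unfolded protein response. IRE1 splices the Xbp1 mRNA so that it encodes an active transcription factor, ATF6 is cut in the Golgi and moves to the nucleus, and PERK slows translation while ATF4 is made. XBP1 and ATF6 switch on chaperones, folding enzymes and the machinery that returns misfolded proteins to the cytosol for degradation. In hepatocytes, which secrete most plasma proteins, the same pathway is active without injury and follows feeding. The reads counted here do not separate spliced from unspliced Xbp1.

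The factors of this response bind named promoter elements, and the stretches that hold them are shown because they are the sequence feature by which these genes are usually grouped. The promoter windows of RefSeq (GRCm38.p6), 250 bases before to 50 bases after the start, were found for all 10 genes and searched on both strands. The patterns were the endoplasmic reticulum stress element ERSE, the related element ERSE-II, the core of the XBP1-bound element UPRE (TGACGTG) and an ATF4 element (TTGCATCA). Capitals mark the letters of a match, read 5′ to 3′ along the gene. Lower-case letters between the capitals of an ERSE or ERSE-II match could be any base.
Hspa5, UPRE core, chr2:34771928-34771944: agcaaTGACGTGagttg
Hspa5, ERSE, chr2:34772020-34772048: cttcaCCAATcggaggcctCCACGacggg
Hsp90b1, ERSE on each strand, chr10:86705521-86705668, minus strand: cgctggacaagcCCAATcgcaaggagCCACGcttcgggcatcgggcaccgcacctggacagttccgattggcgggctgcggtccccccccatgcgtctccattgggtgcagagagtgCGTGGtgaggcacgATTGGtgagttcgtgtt
Herpud1, ATF4 element and ERSE-II, chr8:94386305-94386399: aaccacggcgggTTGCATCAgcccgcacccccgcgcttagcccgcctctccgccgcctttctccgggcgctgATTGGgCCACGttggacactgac
Creld2, ERSE on the opposite strand, chr15:88819508-88819550: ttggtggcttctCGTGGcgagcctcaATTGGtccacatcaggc
Derl3, ERSE on the opposite strand, chr10:75893230-75893272: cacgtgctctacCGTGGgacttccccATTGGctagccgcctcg

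ERSE was present in 4 of the 10 windows (Hspa5, Hsp90b1, Creld2 and Derl3) and in 0.119% of all 32851 promoter windows of this length. ERSE-II was found in Herpud1 and in 0.0365% of all windows, the UPRE core in Hspa5 and in 2.01%, and the ATF4 element in Herpud1 and in 0.895%. The windows of Xbp1, Sdf2l1, Dnajb9, Pdia4 and Selenos held none of these letters in full. These matches describe the sequence only.

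Levels differed by mouse within a group as well as by condition. Hspa5 encodes BiP, the main chaperone of the endoplasmic reticulum. It had 1798, 3370 and 2633 CPM in the 3 WT LF fed mice and 2034, 1092, 710 and 2342 CPM in the 4 WT LF fasted mice. In KO on LF it had 4040, 3741, 1751 and 4962 CPM fed and 2299, 909, 1329 and 1378 CPM fasted. The highest values of Hspa5 among the 30 mice were thus those of 3 KO LF fed mice, while KO LF fed replicate 3 lay below every WT LF fed mouse. On HF, WT mice had 3143, 2692, 2321 and 2437 CPM fed and 1015, 1871, 2250 and 1695 CPM fasted. KO mice on HF had 1868, 1874, 2286 and 1814 CPM fed and 3432, 2278 and 2188 CPM fasted, the one pair of groups in which the mean of the fasted mice was the higher one.

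**Figure D1:**
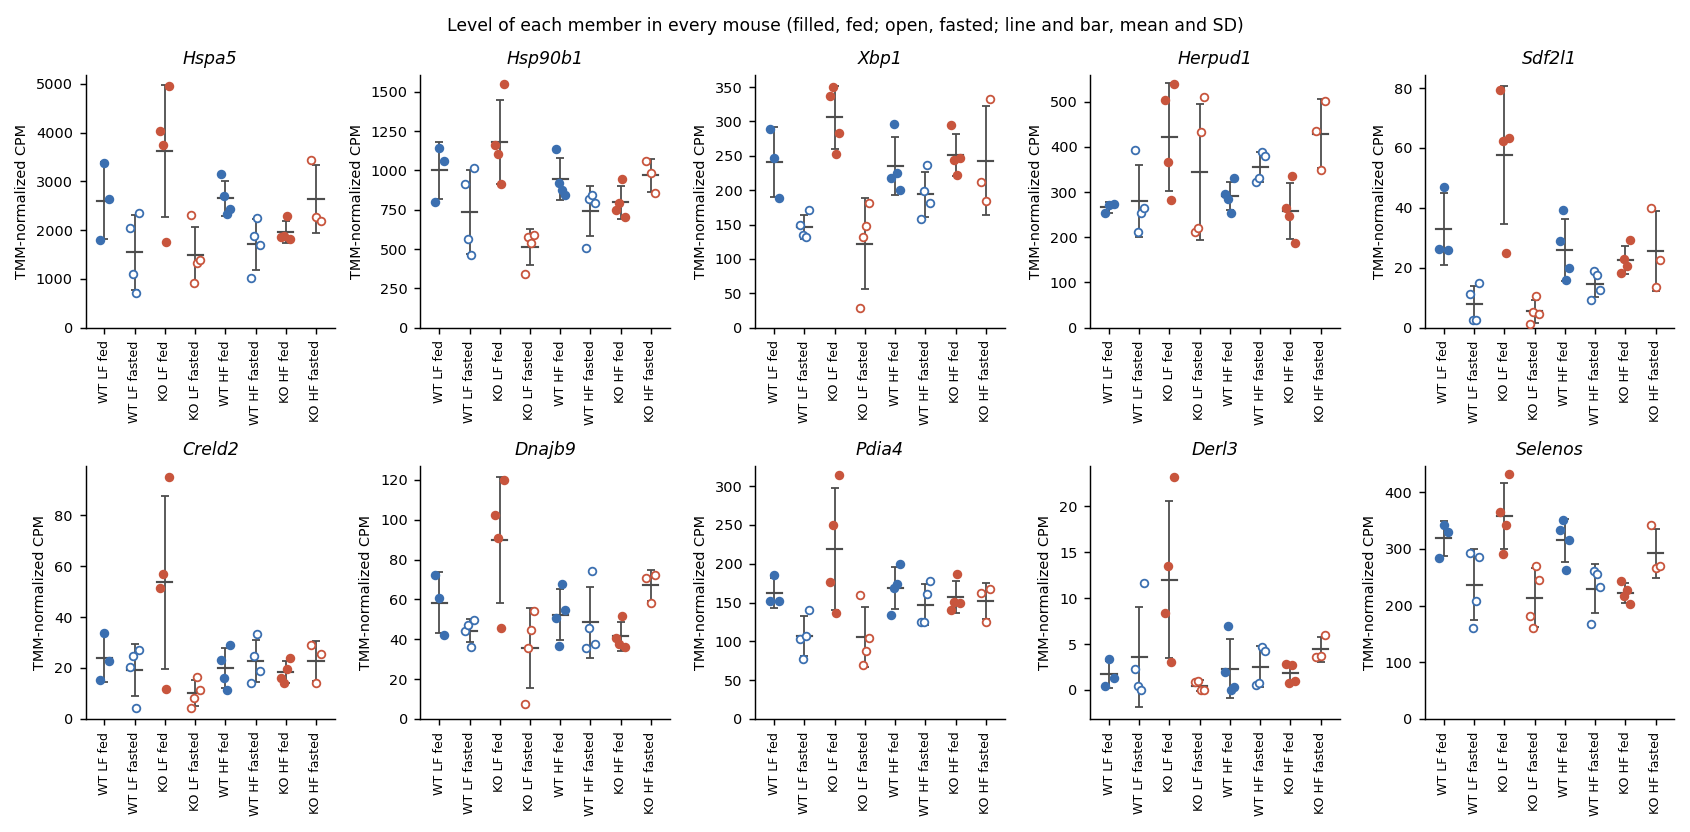
Each panel shows one gene, with TMM-normalized CPM on the vertical axis and the 8 groups on the horizontal axis. Points are the 30 mice (blue, WT; red, KO; filled, fed; open, fasted), and lines and bars are the mean and SD. The KO LF fed mice hold the highest mean for 9 genes, and Herpud1 has its highest mean in KO HF fasted mice.

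Over all 4 pairs of genotype and diet, fasted mice had less RNA of 6 of the 10 genes and more of none. The 6 were the chaperones Hspa5 and Hsp90b1, the disulfide isomerase Pdia4, the co-chaperone Sdf2l1, the degradation factor Selenos and the transcription factor Xbp1. Of all 11566 genes tested, 9.14% fell with fasting at an adjusted p below 0.05 and 18.9% changed in either direction. The median log2 fold change was -0.45 over the 10 genes and -0.00 over all genes tested. All 10 passed the filter on low counts. Derl3 reached the level of that filter (3.449 CPM) in only 10 of the 30 mice and Sdf2l1 in 27, while the other genes reached it in all 30.

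Sdf2l1, a partner of BiP in the lumen, changed most. It had a median of 26.2 CPM in fed mice (15.8 to 79.5) and 11.2 CPM in fasted mice (1.32 to 39.9). Its log2 fold change was -1.52 (SE 0.25, adjusted p = 5.1e-05), which is a ratio of 0.348. Fed and fasted mice overlapped, and KO HF fasted replicate 1, at 39.9 CPM, lay above the fed median.

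Hspa5 fell by 0.56 on the log2 scale (SE 0.18, adjusted p = 0.025). Hsp90b1, which encodes the HSP90 paralog GRP94 of this compartment, fell by 0.43 (SE 0.11, adjusted p = 0.0034) and Pdia4, which forms and exchanges disulfide bonds, by 0.48 (SE 0.11, adjusted p = 0.0022). The range of Hsp90b1 was 707 to 1549 CPM in fed mice and 341 to 1062 CPM in fasted mice. Xbp1 dropped by 0.59 (SE 0.16, adjusted p = 0.0068), with 188 to 351 CPM fed and 28.2 to 333 CPM fasted. Selenos, a selenoprotein of the complex that extracts misfolded proteins from the membrane, dropped by 0.31 (SE 0.09, adjusted p = 0.016). All of these ranges overlapped between fed and fasted mice.

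The other 4 genes did not pass the test. Creld2, a chaperone with disulfide isomerase activity, had a log2 fold change of -0.55 (SE 0.26, adjusted p = 0.16), and Derl3, a channel component of the degradation machinery, one of -0.43 (SE 0.54, adjusted p = 0.66). Dnajb9 encodes the BiP co-chaperone ERdj4 and had -0.29 (SE 0.18, adjusted p = 0.31). Herpud1, a scaffold of the degradation complex, had 0.20 (SE 0.12, adjusted p = 0.29), the one value above 0. The count of reads on Herpud1 and Hsp90b1 can include reads of a gene on the opposite strand (Gm15890 and 1810014B01Rik), because the use of strand in the counting is not given in the sources used here.

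The call of Hspa5 was lost when KO HF fasted replicate 2 (adjusted p = 0.052), KO HF fasted replicate 3 (0.055) or WT LF fed replicate 3 (0.057) was left out in edgeR, and Creld2 passed without KO LF fed replicate 3 (adjusted p = 0.038). The labels place the mice on lanes 7 and 8 of the sequencer, with all WT LF fed mice on lane 8. The mean over the pairs of genotype and diet can therefore not be formed in lane 7. The fits within a lane took genotype, diet and feeding as separate terms, so their values are not the same measure as that of all mice. Within lane 7 alone and within lane 8 alone, 0 of the 10 genes passed (6 in lane 7 and 1 in lane 8 had an unadjusted p below 0.05, as did 15.6% and 24.4% of all genes), but 5 of the 6 kept a value within 1.5 times that of all mice in both lanes. Sdf2l1 had -1.59 in lane 7 and -1.27 in lane 8, Hspa5 -0.65 and -0.56, and Xbp1 -0.88 and -0.23, with adjusted p from 0.093 to 0.39 over these 3 genes and both lanes.

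The mean over the 4 pairs joined unlike values, which are given by pair. In KO mice on LF, 9 of the 10 genes fell with fasting, against 6.53% of all genes tested that were called lower in this comparison, and the median log2 fold change was -1.31 (0.01 over all genes). Derl3, among these 9, reached the level of the filter on low counts in 3 KO LF fed mice and in no KO LF fasted mouse. Its call is therefore no separate support. In WT mice on LF, 1 gene passed, Sdf2l1, against 3.79% of all genes called lower, with a median of -0.43. On HF none passed in WT (0.424% of all genes called in either direction, median -0.24) or in KO (0.527%, median 0.35). At an unadjusted p below 0.05, 1 gene was found in WT and 2 in KO on HF (9.19% and 7.53% of all genes), and DESeq2 called 0 in both.

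**Figure D2:**
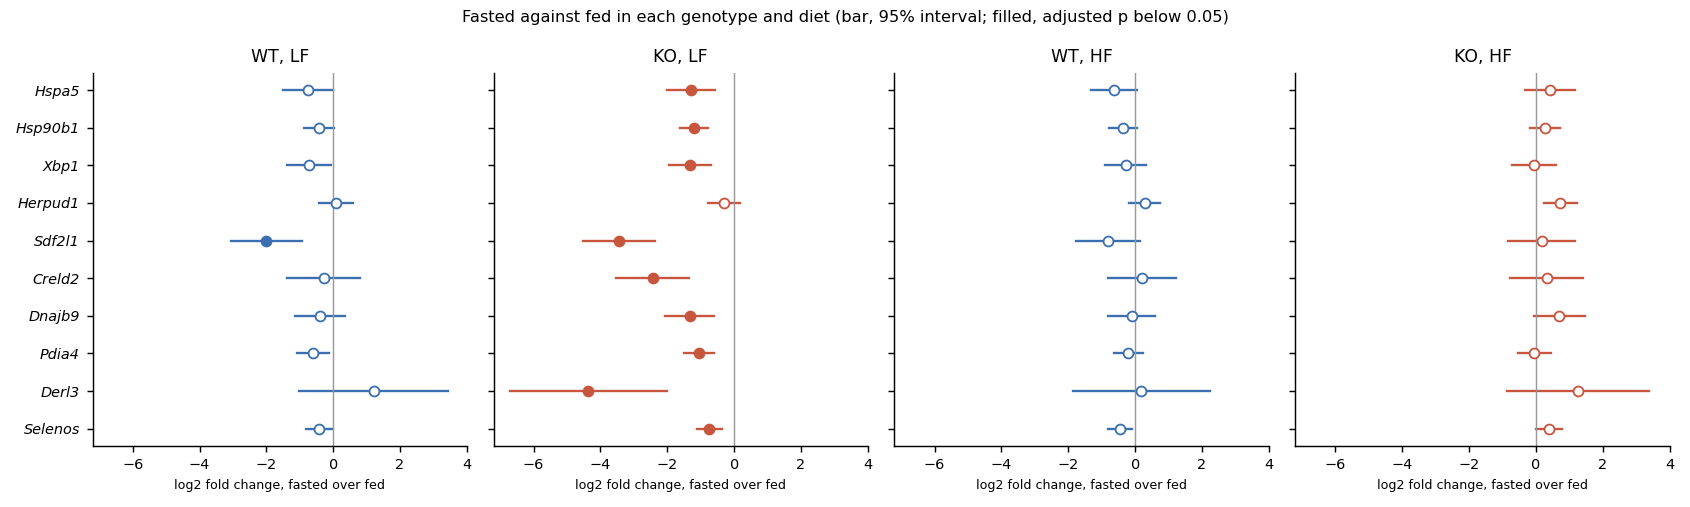
The panels show fasted against fed in each genotype and diet, with the log2 fold change on the horizontal axis, the 95% interval as a bar and filled points for an adjusted p below 0.05. In KO on LF, 9 points are filled and lie below 0, in WT on LF only that of Sdf2l1 is filled, and on HF none is.

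KO LF mice had 79.5, 62.4, 25.1 and 63.2 CPM of Sdf2l1 fed and 1.32, 5.15, 10.5 and 4.69 CPM fasted. The groups did not overlap, and the log2 fold change was -3.44 (SE 0.52, adjusted p = 4.9e-05). The fasted values rest on 3, 20, 20 and 12 counts. WT LF mice had 26.2, 46.9 and 25.8 CPM fed and 11.2, 2.41, 2.59 and 14.9 CPM fasted, also without overlap, with a log2 fold change of -1.998 (SE 0.51, adjusted p = 0.014). The latter call was lost without WT LF fed replicate 3 (-1.67, adjusted p = 0.10).

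Creld2 had 51.3, 56.9, 11.7 and 94.8 CPM in KO LF fed mice and 4.41, 8.24, 16.4 and 11.3 CPM in KO LF fasted mice. KO LF fed replicate 3 lay among the fasted mice, and the log2 fold change was -2.44 (SE 0.53, adjusted p = 0.0022). In WT on LF the values were 15.4, 33.9 and 22.6 CPM fed and 20.5, 24.9, 4.31 and 27.1 CPM fasted, a log2 fold change of -0.29 (SE 0.53, adjusted p = 0.84). Fed and fasted WT mice overlapped almost fully.

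Derl3 was counted 26, 32, 9 and 74 times in KO LF fed mice and 2, 4, 0 and 0 times in KO LF fasted mice. Its fitted log2 fold change of -4.37 (SE 1.15, adjusted p = 0.0095) depends on the prior count of the fit, since the fasted mice lay near the floor of 3 counts. The counts in all 30 mice ran from 0 to 74, and 4 mice had 0.

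The chaperones with higher counts moved less. Hsp90b1 had 1160, 1102, 910 and 1549 CPM in KO LF fed mice and 341, 579, 537 and 589 CPM in KO LF fasted mice, with no overlap and a log2 fold change of -1.21 (SE 0.21, adjusted p = 8.6e-05). Hspa5 had -1.29 (SE 0.34, adjusted p = 0.012), with overlap through KO LF fed replicate 3 and KO LF fasted replicate 1. Pdia4 had -1.06 (SE 0.22, adjusted p = 0.00090), with 176, 250, 137 and 314 CPM fed and 160, 69.5, 87.6 and 105 CPM fasted, of which KO LF fasted replicate 1 lay above the lowest fed mouse.

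Xbp1 had 337, 351, 253 and 284 CPM in KO LF fed mice and 28.2, 132, 147 and 182 CPM in KO LF fasted mice, a log2 fold change of -1.32 (SE 0.30, adjusted p = 0.0033) with no overlap. Dnajb9 had 103, 90.6, 45.7 and 120 CPM fed and 7.50, 35.8, 44.8 and 54.0 CPM fasted in the same groups, a change of -1.33 (SE 0.35, adjusted p = 0.010) with overlap through KO LF fed replicate 3. KO LF fasted replicate 1 had the least of Xbp1, Dnajb9, Hsp90b1, Sdf2l1, Creld2 and Herpud1 of its group, but the most of Hspa5 and Pdia4. Selenos dropped by 0.74 (SE 0.18, adjusted p = 0.0038) without overlap, and Herpud1 had -0.30 (SE 0.23, adjusted p = 0.46).

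Every fasted KO mouse on LF lay below every fed one for 5 genes (Hsp90b1, Xbp1, Sdf2l1, Derl3 and Selenos), as for 6.97% of all genes. Every fasted KO mouse on HF lay above every fed one for 4 (Herpud1, Dnajb9, Derl3 and Selenos), as for 5.35% of all genes. Derl3, in both lists, reached the filter level only in the higher group of each pair (KO LF fed and KO HF fasted). Non-overlap below was seen for 3 genes in WT on LF (10.2% of all genes) and for 2 in WT on HF (2.7%).

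The 9 calls in KO on LF held in all 30 fits that left out 1 mouse, with the lane as a term and in DESeq2, with 9 genes passing each time. Derl3 is among these 9, and for the reason given above its call is no separate support in any of these fits. With all 32 mice, 6 passed. Within lane 7 (2 fed and 3 fasted KO LF mice) the fasted mean was lower for 10 genes, and within lane 8 (2 fed and 1 fasted) for 9. The share of all genes that were lower in the same way was not counted. These genes, Derl3 among them, were measured in the same few mice, so the counts are a description only. Adrenal cortex markers summed to 289 CPM in KO LF fasted replicate 3 and 124 CPM in replicate 4, whereas no other of the 30 mice exceeded 40.9 CPM, and their part in the result was not tested.

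Markers of other cell types also moved with feeding in some of these groups. The 5 bile duct markers, none of them at 0 in all mice, summed to 60.7 to 82.7 CPM in KO LF fed and 48.9 to 58.7 CPM in KO LF fasted mice, and to 79.8 to 96.1 CPM and 55.1 to 62.5 CPM in WT LF, with no overlap in either genotype. The median sum of the 7 liver macrophage markers was 420 CPM in KO LF fed and 260 CPM in KO LF fasted mice, with overlap (406 to 450 and 215 to 556 CPM). The sum of 556 CPM was that of KO LF fasted replicate 1, against 256, 263 and 215 CPM in the rest of its group. In WT on LF the acinar pancreas markers summed to 27.2 to 33.2 CPM fed and 2.16 to 13.2 CPM fasted. In KO on HF the 5 neutrophil markers summed to 7.19 to 12.2 CPM fed and 17.1 to 20.3 CPM fasted. Only 3 of these 5 exceeded 3 counts in any of the 30 mice. The bile duct sum was 60.3 to 84.1 CPM in KO HF fasted mice, above all KO LF fasted mice, as was that of the neutrophil markers (2.83 to 10.0 CPM on LF). The part of these markers in the results was not tested.

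Whether the fasting effect differed by diet was tested next. The difference of the fasting effects, HF minus LF averaged over the genotypes, was above 0 for all 10 genes, and 2 passed the test, against 1.26% of all genes that were called above 0. These were Sdf2l1, with a difference of 2.39 on the log2 scale (SE 0.50, adjusted p = 0.0086), and Hsp90b1, with 0.78 (SE 0.22, adjusted p = 0.039). The median difference was 0.89 over the 10 genes and -0.01 over all genes. All 10 had an unadjusted p below 0.05, as did 13.3% of all genes.

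Of the 30 fits that left out 1 mouse, the call of Hsp90b1 held in 13, with adjusted p of up to 0.095, and that of Sdf2l1 in 30. With all 32 mice neither passed (adjusted p of 0.51 and 0.17). With single mice left out, 1 to 5 genes passed, 5 without KO LF fasted replicate 1 (Hsp90b1, Sdf2l1, Xbp1, Dnajb9 and Pdia4) or without KO LF fed replicate 3 (Hsp90b1, Sdf2l1, Creld2, Dnajb9 and Pdia4). Hsp90b1 passed 0.05 no longer with lane as a term (adjusted p = 0.071), with the acinar pancreas level as a term (0.061) or without the 2 mice with acinar pancreas markers (0.11), while Sdf2l1 passed in each of these.

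Tested within each genotype, a comparison added after the fasting effects were known, the difference passed for 3 genes in KO and 0 in WT, where 0.19% of all genes did. In KO, Hsp90b1 had 1.48 (SE 0.31, adjusted p = 0.012), Sdf2l1 3.60 (SE 0.71, adjusted p = 0.014) and Selenos 1.14 (SE 0.27, adjusted p = 0.030), against 0.363% of all genes called above 0. All 10 genes had an unadjusted p below 0.05 in KO, where 10.4% of all genes did, and 0 in WT, where 7.26% did. The median difference was 1.60 in KO and 0.25 in WT. In WT, 8 values were above 0 and 2 below, with Sdf2l1 at 1.18 (SE 0.69, adjusted p = 0.79). Whether the difference between the diets was itself unlike in KO and WT was not tested. The counts by genotype therefore do not show an effect limited to KO. DESeq2 called 6 in KO and 0 in WT, and without KO HF fasted replicate 1 the count in KO was 0. Selenos had 365, 291, 342 and 433 CPM fed and 181, 161, 270 and 245 CPM fasted in KO on LF. On HF it had 243, 216, 228 and 202 CPM fed and 343, 266 and 270 CPM fasted, so that every fasted mouse was above every fed mouse on HF and below every fed mouse on LF.

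**Figure D3:**
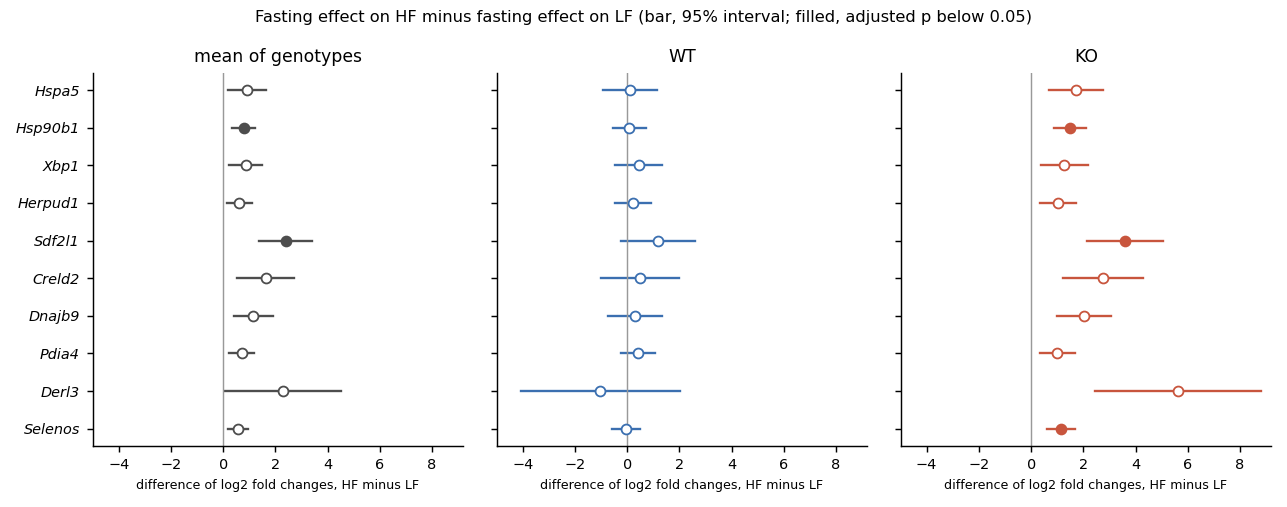
The panels show the fasting effect on HF minus that on LF, averaged over the genotypes, in WT and in KO, as a difference of log2 fold changes with its 95% interval; filled points have an adjusted p below 0.05. In KO all 10 points lie above 0, between 1.01 and 5.62, and 3 are filled, while in WT 8 lie above 0 and none is filled. The values of KO and WT were not tested against each other.

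A difference between the genotypes in the fasting effect was not shown. On LF all 10 values of KO minus WT were below 0, with a median of -0.69 (0.01 over all genes). On HF all 10 were above 0, with a median of 0.71 (-0.01 over all genes). The 10 genes were measured in the same mice, so their shared sign is not separate support from each gene. No gene passed on either diet, at adjusted p of 0.92 to 0.95 on LF and 0.999 on HF, and 0% of all genes did. At an unadjusted p below 0.05, there were 3 genes on LF (Hsp90b1, Creld2 and Derl3; 5.41% of all genes) and 3 on HF (Hspa5, Hsp90b1 and Selenos; 3.3%), and DESeq2 called 0. For Hsp90b1 the 95% interval of the difference was -1.39 to -0.14 on LF and 0.01 to 1.25 on HF, and that of Sdf2l1 on LF was -2.96 to 0.08. Averaged over the diets, 0 of the 10 passed (0% of all genes), with 1 at an unadjusted p below 0.05 (4.95% of all genes), and DESeq2 called 0.

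Few of these genes passed the test between the diets. Averaged over genotype and feeding state, 0 of the 10 passed between HF and LF (3.49% of all genes did), none had an unadjusted p below 0.05 (15.8% of all genes did), and DESeq2 called 0. Their log2 fold changes ran from -0.09 for Creld2 to 0.35 for Sdf2l1, with a median of 0.03. In fasted KO mice 2 were higher on HF than on LF, against 1.07% of all genes. Sdf2l1 rose by 2.26 (SE 0.55, adjusted p = 0.032), from 1.32, 5.15, 10.5 and 4.69 CPM on LF to 39.9, 13.6 and 22.7 CPM on HF. Hsp90b1 rose by 0.92 (SE 0.22, adjusted p = 0.024), to 1062, 986 and 855 CPM on HF. All HF mice were above all LF mice for both. The share of all genes that separated in this way was not counted, so this is a description only. Neither passed without KO HF fasted replicate 1, with adjusted p of 0.20 for Sdf2l1 and 0.12 for Hsp90b1, or without KO LF fasted replicate 1 (0.096 and 0.075).

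In fed KO mice all 10 values of HF against LF were below 0, with a median of -0.80 (0.01 over all genes). None passed (0.00865% of all genes did, 0 of them lower), the adjusted p were 0.27 to 0.92, 9 had an unadjusted p below 0.05 (7.26% of all genes did), and DESeq2 called 0. Creld2 had -1.54 (SE 0.49, adjusted p = 0.40) and Dnajb9 -1.11 (SE 0.35, adjusted p = 0.36). In WT mice 0 genes passed in the fed (0.0778% of all genes) or fasted state (1.12%), with 0 and 1 at an unadjusted p below 0.05 (5.22% and 12.3% of all genes), and DESeq2 called 0 in both.

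No difference between KO and WT mice passed the test in any of these genes. The averaged comparison found 0 of 10, against 0.00865% of all genes, which is Acadm alone. Their log2 fold changes ran from -0.04 for Hsp90b1 to 0.27 for Herpud1, with 1 gene at an unadjusted p below 0.05 (2.9% of all genes), and DESeq2 called 0. By condition the count was 0 in each, with 3 genes at an unadjusted p below 0.05 in LF fed mice (3.89% of all genes), 2 in LF fasted mice (5.91%), 1 in HF fed mice (2.73%) and 0 in HF fasted mice (2.49%), and 0 in DESeq2 each time. The genotype difference in the diet effect was also found for 0 of 10 (0% of all genes), with 0 at an unadjusted p below 0.05 (3.43% of all genes) and 0 in DESeq2.

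In LF fed mice, all 10 values were above 0, with a median of 0.55 (-0.00 over all genes). These values also come from the same mice and are not separate support from each gene. Creld2 had 1.18 (SE 0.53, adjusted p = 1.0), with a mean of 53.7 ± 34.0 CPM (SD, n = 4) for KO against 23.9 ± 9.32 CPM (SD, n = 3) for WT. For Hspa5 the means were 3623 ± 1352 CPM (SD, n = 4) for KO against 2600 ± 786 CPM (SD, n = 3) for WT. The spread among KO mice, with replicate 3 low, was as large as the difference for both.

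**Figure D4:**
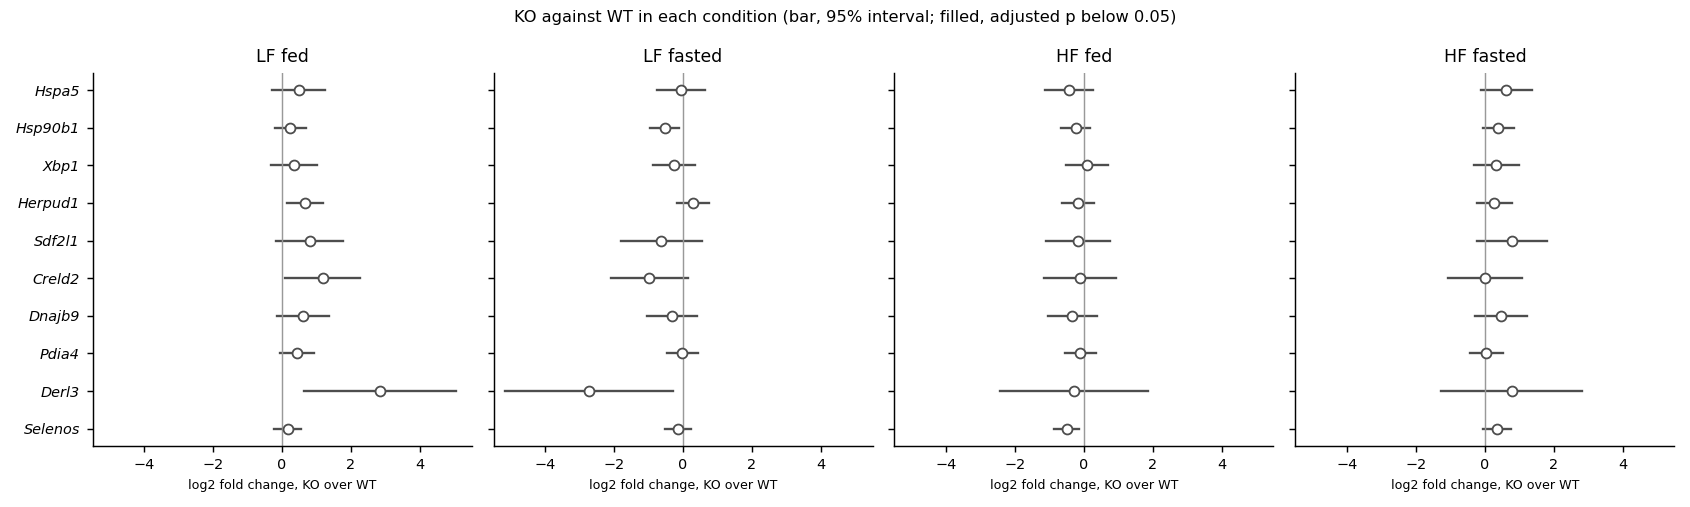
The panels show KO against WT in the 4 conditions, with the log2 fold change on the horizontal axis and its 95% interval as a bar. No point is filled, since no gene had an adjusted p below 0.05, and the widest intervals are those of Derl3.

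The rest of the pathway was read from 83 further genes of the endoplasmic reticulum, sorted by role, of which 80 passed the filter on low counts (Asns, Sesn2 and Kdelr3 did not). With fasting, 43 fell, 5 rose and 32 did not pass, with a median log2 fold change of -0.30. The share that changed was 60.0%, against 18.9% of all genes. The list was chosen with earlier results of these data known, so its shares beside those of all genes are a description only.

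Among the 8 sensors and processing enzymes, 4 fell and 1 rose. Ern1, which encodes IRE1, dropped by 0.66 (SE 0.11, adjusted p = 2.7e-05), while Creb3l3, a liver transcription factor that is cut like ATF6, rose by 0.82 (SE 0.09, adjusted p = 8.9e-09). The PERK and ATF4 branch moved both ways, with 2 of 8 lower and 3 higher. Atf4 fell by 0.51 and Chac1, an ATF4 target that breaks down glutathione, by 1.27, whereas Atf5 rose by 0.57, Trib3 by 0.74 and Cebpb by 0.75.

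Of 12 chaperones and co-chaperones, 8 fell and none rose. Hyou1, which exchanges nucleotide on BiP, dropped by 1.14 (SE 0.19, adjusted p = 2.9e-05), and the lectin chaperones Calr and Canx by 0.69 and 0.36. The role of disulfide isomerases and oxidases also held the prolyl isomerases Ppib, Fkbp2 and Fkbp11. Of its 14 genes 9 fell, among them Pdia6 (-1.14, SE 0.12, adjusted p = 1.7e-09), Ppib (-0.76) and Erp44 (-0.55), the 3 with the smallest p.

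Of 15 degradation genes, 7 fell and 1 rose. Derl2, a paralog of Derl3, dropped by 0.80 (SE 0.08, adjusted p = 5.6e-10), Selenok by 0.57 and the mannosidase-like Edem1 by 0.52. Genes of translocation and signal peptide removal fell in 10 of 14 cases, among them Sec61b (-1.15), Ssr1 (-0.72) and Ssr3 (-0.62). Of 9 genes of export and retrieval 3 fell, Sec23b (-0.55), Kdelr2 (-0.48) and Lman1 (-0.45).

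**Figure D5:**
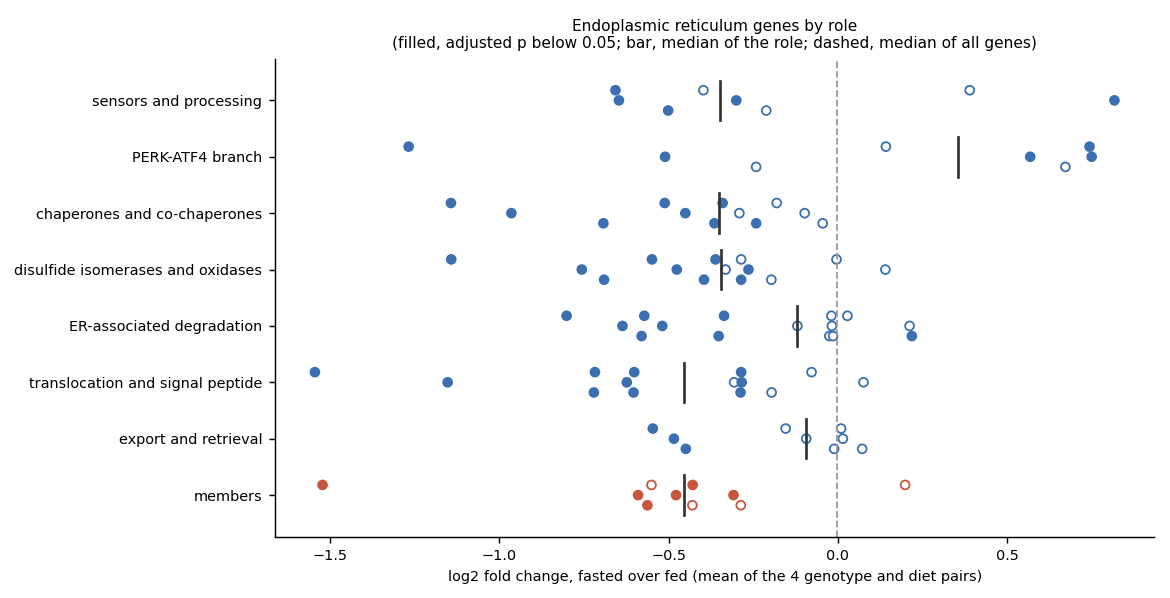
Each point is a gene, with the log2 fold change of fasted over fed mice on the horizontal axis and the role on the vertical axis. Filled points have an adjusted p below 0.05, bars are the median of each role, and the dashed line is the median of all genes tested. The median lies below 0 in every role but the PERK and ATF4 branch (0.35), and at -0.45 for the 10 members.

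With diet, 2 of the 80 passed (3.49% of all genes), Atf5 lower (-0.44, SE 0.11, adjusted p = 0.024) and Sec61b higher on HF (0.50, SE 0.13, adjusted p = 0.025). Between KO and WT 0 passed, 3 had an unadjusted p below 0.05 (2.9% of all genes) and DESeq2 called 0. The fasting effect differed by diet for 14 of the 80, 13 with a value above 0 and Atf5 below, against 2.46% of all genes. Pdia6 had a difference of 1.46 (SE 0.23, adjusted p = 0.00017) and Eif2ak3, which encodes PERK, 1.48 (SE 0.34, adjusted p = 0.012).

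The genes most like Hspa5 over the 30 mice, by Pearson's r of log2 (CPM + 1) among 11565 genes, were Tmed9 (r = 0.89), Sel1l (0.87), Gmppb (0.85), Gfpt1 (0.82) and Mlec (0.82), with Spearman's rho of 0.79, 0.86, 0.82, 0.75 and 0.80. These correlations describe mice that share groups and lanes. Among the members, Hsp90b1 had r = 0.80, Pdia4 0.79, Selenos 0.78, Sdf2l1 0.78, Creld2 0.71 and Derl3 0.69. Dnajb9 (0.45), Xbp1 (0.39) and Herpud1 (0.38) were less like it.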

How the data were processed

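The authors prepared 3′ libraries from RNA labelled as liver, mapped the reads to GRCm38 and counted reads per gene. The submitters' processing notes name HISAT 0.1.5, SAMtools 1.2 and HTSeq 0.6.1p1, and the deposited table holds whole-number counts with no normalization. Groups, replicate numbers, lanes and ages came from the labels. Symbols and positions came from GENCODE vM21 on the same build for 19913 of 20076 identifiers. The other 163 held 0.125% of counts and were kept in the tests. Promoter windows came from RefSeq.

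Genes were kept by filterByExpr, normalized by TMM and tested with the robust quasi-likelihood test of edgeR 4.0.16 (R 4.3.3) in one model of 8 groups over 30 mice, with contrasts for fasting, diet, genotype and their differences. Adjusted p are Benjamini-Hochberg values over all 11566 genes tested. A gene was called at an adjusted p below 0.05. DESeq2 1.42.0 was run as an alternative. The differences of fasting effects within one diet or genotype were added after the data had been seen. The test was checked on simulated counts. Precision depends on the total counts and on the spread between mice, and the floor of 3 counts covers counting error only.

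The members, wider list and marker lists were chosen with earlier results of these data known. Genes of the wider list are named as up to 3 per direction and role with the smallest p for fasting, and all called for diet or genotype. For the fasting effect by diet, Pdia6 and Eif2ak3 were named after their values were seen. Mice of one group differed by more than counting noise (lowest chi-square per gene 4.17 over 42 pairs). The promoter patterns searched were consensus elements supplied from general knowledge, not taken from the study or the RefSeq tables. The values of 1 gene of the wider list are not reported here, and the gene is kept in the counts.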

Additional observations from a re-analysis of the deposited data

Results flagged for a closer look

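In 60 sets of 4 mice, 1 per gene and group, 2 mice lay apart from the other 3 of their group by Dixon's test, which chance gives in about 1 of 20 sets. Hspa5 was at 2286 CPM in KO HF fed replicate 3, against 1814 to 1874 CPM in the other 3 mice. Hsp90b1 was at 504 CPM in WT HF fasted replicate 1, against 794 to 845 CPM in the others.

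The fasting effect differed between the diets in a direct test for Hsp90b1 (difference 0.78, adjusted p = 0.039, edgeR) and Sdf2l1 (2.39, adjusted p = 0.0086, edgeR) over both genotypes. Of all genes, 1.26% were called above 0 there. The call of Hsp90b1 held in 13 of the 30 fits that left out 1 mouse. In KO mice alone it differed for Hsp90b1 (1.48, adjusted p = 0.012), Sdf2l1 (3.60, adjusted p = 0.014) and Selenos (1.14, adjusted p = 0.030), all in edgeR. This comparison was added after the data had been seen, and 0.363% of all genes were called above 0 in it. Without KO HF fasted replicate 1, or with all 32 mice, 0 members passed in KO. The values of KO and WT for this comparison were not tested against each other.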

How the results depend on the processing

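Direction and side of the threshold held for the 9 genes that fell with fasting in KO on LF in every fit with 1 mouse left out. Derl3, among these 9, lay near the floor in the fasted mice, so its call is no separate support. Counts of passing genes moved by more than 1.5 times as follows. For HF against LF in fasted KO mice, 1 gene passed in place of 2 with no filter, with at least 10 counts in every mouse, with 31 mice (WT LF fed replicate 2 kept) and with the replicate block, and 0 with all 32 mice. For fasting in WT on LF, 0 passed in place of 1 with at least 10 counts in every mouse and with all 32 mice. For the fasting effect by diet, 1 passed in place of 2 with at least 10 counts, 31 mice, lane as a term, the acinar pancreas level as a term, or without the 2 mice with acinar pancreas markers (28 mice, a choice made after seeing the data), and 0 with all 32 mice. In KO alone 6 passed in place of 3 in DESeq2 and 0 with all 32 mice. Fasted against fed gave 0 members in place of 6 within lane 7 and 0 within lane 8. In the wider list it gave 11 within lane 7 and 30 within lane 8 in place of 48, and diet gave 0 in place of 2 within lane 7, within lane 8 and with all 32 mice. With at least 10 counts in every mouse, Sdf2l1 (lowest count 3) and Derl3 (lowest count 0) were not tested, so Sdf2l1 could not pass there. The fits of all 32 mice include KO HF fasted replicate 4, the mouse with high heart markers. The within-lane fits hold fewer mice and take genotype, diet and feeding as separate terms. The cause of the other moves was not tested.

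With single mice left out, the members passing were 5 to 7 for fasting, 0 to 2 in WT on LF, 9 to 9 in KO on LF, 0 to 2 for diet in fasted KO, 1 to 5 for fasting by diet and 0 to 6 for fasting by diet in KO. In the wider list they were 39 to 48 for fasting and 0 to 3 for diet. The other comparisons of members stayed at 0.

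Values below the threshold changed sign as follows. For HF against LF these were Hspa5 with all 32 mice (-0.025) and in lane 8 (-0.021), Creld2 with age as a term (0.021) and in lane 8 (0.015), Herpud1 in lane 7 (-0.066), Hsp90b1 in lane 8 (-0.098), Selenos in lane 7 (0.086), and Derl3 in lane 7 (-0.31) and lane 8 (-1.13). For KO against WT they were Creld2 (-0.045) and Derl3 (-0.078) with age as a term, Hsp90b1 in lane 7 (0.024) and lane 8 (0.029), and Selenos in lane 7 (0.029) and lane 8 (0.00058). Derl3 had 1.08 for fasting in lane 8. With single mice left out, signs changed for HF against LF in Hspa5 (-0.030 to 0.10), Herpud1 (-0.024 to 0.084), Creld2 (-0.18 to 0.015), Dnajb9 (-0.14 to 0.013) and Derl3 (-0.37 to 0.54), and for KO against WT in Hsp90b1 (-0.078 to 0.013), Creld2 (-0.084 to 0.11) and Derl3 (-0.049 to 0.65).

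Same-numbered mice did not deviate together (median correlation 0.0066 over 98 pairs), and 5 of 30 mice correlated best with their own number. With the replicate block 6 members passed for fasting and 9 in KO on LF. At these depths Derl3, at 0 to 74 counts, and the fasted values of Sdf2l1 are the least precise.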

Other observations

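The 2 mice left out had these member levels when all 32 mice were normalized together. KO HF fasted replicate 4, in which heart markers summed to 42837 CPM, had 710 CPM of Hspa5, 289 CPM of Hsp90b1, 43.2 CPM of Xbp1, 17.6 CPM of Pdia4 and 296 CPM of Herpud1. Its Sdf2l1 and Derl3 each had 2 counts. WT LF fed replicate 2 had 2082 CPM of Hspa5, 741 CPM of Hsp90b1, 162 CPM of Xbp1, 122 CPM of Pdia4, 165 CPM of Herpud1 and 378 CPM of Selenos, with 0 counts of Derl3.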
